A study of Mus musculus with 6 samples.

Results

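The Kruppel-like factors described here are 10 genes, Klf2, Klf3, Klf4, Klf5, Klf6, Klf9, Klf10, Klf11, Klf13 and Klf16, taken by symbol from a table of 25899 genes, and all 10 were found. They were followed in 6 libraries of newly made RNA from mouse embryonic stem cells of strain E14tg2a (background strain 129SV) that stably carry a cRAF-ErT2 cassette, a RAF kinase fused to a domain that answers to 4-hydroxytamoxifen (4OHT), so that 4OHT switches on ERK signalling. Each of 3 clones, a, b and c, gave 1 untreated library and 1 library after 2 h of 250 nM 4OHT. All cells had been kept in serum with LIF and 2 µM CHIR99021, a GSK3 inhibitor. For the last 24 h before treatment they were in serum and LIF with 250 nM PD173074, an FGF receptor inhibitor, so the untreated cells also carry the cassette and the inhibitor. Ethynyl uridine at 5 mM for 15 min before RNA isolation marked the RNA that was captured and counted. The promoter of the cassette is not given in the sources used here, and neither solvent-treated cells nor cells lacking the cassette are among the samples. Effects of 4OHT itself and of the RAF fusion therefore cannot be told apart.

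Kruppel-like factors (KLFs) are transcription factors that bind GC-rich and CACCC sequences through a set of zinc fingers at the end of the protein, which they share with the SP factors. Klf2, Klf4 and Klf5 are known for sustaining the naive pluripotent state of mouse embryonic stem cells, where LIF and STAT3 maintain Klf4, and the Klf2 and Klf4 proteins are known substrates of ERK. Klf3 belongs to the branch that recruits the corepressor CtBP. Klf9, Klf10, Klf11, Klf13 and Klf16 belong to the branch that recruits the corepressor SIN3A, and Klf6 is known as a gene that growth signals induce.

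Total counts ran from 7295334 to 12168380 per library. Levels below are TMM-normalised CPM, the counts scaled to a common library size, on which 3 counts, as many as a gene with none may hide by counting error alone, stand for 0.228 to 0.438 CPM. Of the embryonic stem cell markers checked, all 10 had reads, and their summed level was 2947 to 3048 CPM untreated and 2169 to 2569 CPM after 4OHT. By the test used below, 5 of the 10 were lower and 2 higher (28.6% and 28.5% of all tested genes). The summed level of 8 fibroblast or feeder markers was 10.9 to 12.5 CPM untreated and 65.0 to 102 CPM after 4OHT. Most of it was Vim and Twist1, with Postn at 0 in every library and Col1a2 and Col3a1 under 1 CPM. Of the 4 tested, 3 were higher (Vim, Twist1 and Col1a1) and 1 lower (Pdgfrb), against 28.5% and 28.6% of all tested genes. Mean Col1a1 went from 0.259 to 2.91 CPM and mean Pdgfrb from 1.69 to 0.893 CPM. The 8 primitive endoderm markers summed to 190 to 253 CPM untreated and 392 to 448 CPM after 4OHT, with Foxa2 and Sox17 under 1 CPM. Of the 6 tested, Sparc rose (59.9 ± 8.85 to 356 ± 31.1 CPM) and Col4a1 (119 ± 25.3 to 38.7 ± 6.63 CPM) and Dab2 (37.8 ± 3.08 to 9.89 ± 1.94 CPM) fell, so the higher sum is that of Sparc. The 8 trophoblast markers summed to 128 to 138 and 146 to 198 CPM, with Elf5 under 1 CPM. Of the 6 tested, Krt8 (mean 15.0 to 55.7 CPM), Krt18 (9.37 to 32.7) and Hand1 (0.428 to 2.28) rose. Tfap2c (80.3 to 48.6) fell. The part of these markers' changes in the results below was not tested. Egr1, an immediate early target of ERK, went from 66.2 ± 17.3 to 3834 ± 152 CPM, and Esr1, Dusp6, Spry4 and Etv4, also followed as checks of the cassette and of ERK output, rose as well.

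Nascent RNA of the Kruppel-like factors changed in both directions within 2 h of 4OHT. Klf10, Klf6, Klf5, Klf16, Klf3 and Klf9 rose, Klf11, Klf2 and Klf4 fell, and Klf13 did not pass the test. That is 9 of 10 called (edgeR quasi-likelihood test, adjusted p below 0.05), where 57.1% of the 13869 genes tested were called, 28.5% higher and 28.6% lower (3953 and 3968 genes). Scaled by library size those were 2407 and 5684 genes, and by upper quartile 3152 and 4756. In 6 of the 10 (Klf2, Klf5, Klf6, Klf10, Klf11 and Klf16) the call went with a change of at least 2-fold, against 16.4% of all tested genes. The same 9 genes had groups of 3 libraries that did not overlap in CPM, which held for 63.3% of all tested genes. The median size of the log2 fold change was 1.16 over the members and 0.39 over all tested genes, and the signed medians were 0.49 and -0.00054. In bulk libraries a smaller share of cells making an RNA and less RNA per cell cannot be told apart.

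**Figure D1:**
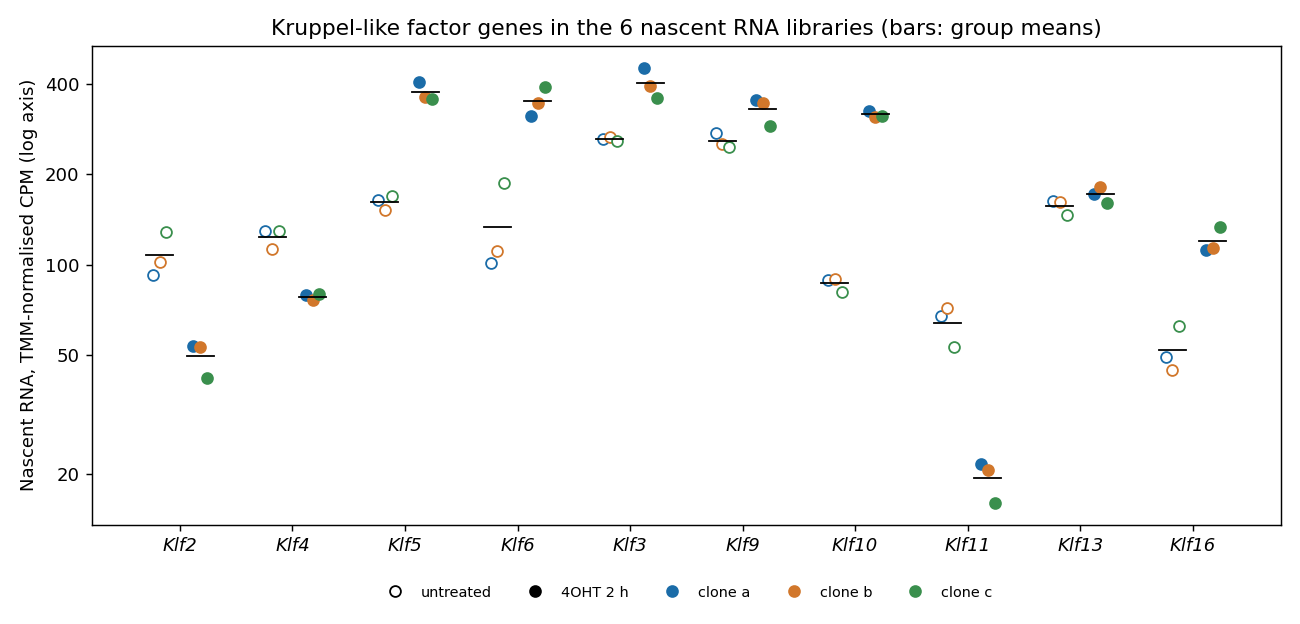
Each point is the TMM-normalised CPM of 1 gene (horizontal axis) in 1 library on a log axis, open for untreated and filled for 4OHT, coloured by clone, with bars at group means. Groups are separate for 9 genes, with Klf10 at 81.0 to 89.6 CPM untreated and 311 to 325 CPM after 4OHT, and overlap for Klf13.

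Start-site sequences are shown for Klf2 and Klf4, the naive members that fell, for Klf11, the member with the largest fall, and for Klf6, which rose. RefSeq windows of 300 bases (250 before to 50 after the start, GRCm38.p6) were found for 7 members, and Klf5, Klf10 and Klf16 had none. Each sequence below ends just before the RefSeq or GENCODE start, whichever comes first, and capitals mark matches on either strand to GGGCGG, the GC box that SP and KLF factors bind, or to GCGNGGGCG, the EGR motif, which can overlap a GC box. They lie at chr8:72318812-72319032 (plus strand) for Klf2, chr4:55532476-55532725 (minus strand) for Klf4, chr12:24651121-24651273 (plus strand) for Klf11 and chr13:5861239-5861481 (plus strand) for Klf6.
Klf2: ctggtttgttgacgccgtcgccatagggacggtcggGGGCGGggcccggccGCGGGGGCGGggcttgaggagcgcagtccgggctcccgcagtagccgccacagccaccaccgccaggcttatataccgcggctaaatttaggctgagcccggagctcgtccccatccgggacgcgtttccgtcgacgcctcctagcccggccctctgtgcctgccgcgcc
Klf4: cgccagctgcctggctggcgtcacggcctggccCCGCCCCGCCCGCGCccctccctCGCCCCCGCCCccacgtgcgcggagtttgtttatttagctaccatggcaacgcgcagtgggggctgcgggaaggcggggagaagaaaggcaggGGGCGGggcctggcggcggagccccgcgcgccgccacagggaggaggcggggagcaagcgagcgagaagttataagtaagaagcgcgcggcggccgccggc
Klf11: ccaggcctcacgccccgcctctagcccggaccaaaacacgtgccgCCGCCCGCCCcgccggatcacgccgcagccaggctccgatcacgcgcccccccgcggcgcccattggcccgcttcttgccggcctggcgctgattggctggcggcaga
Klf6: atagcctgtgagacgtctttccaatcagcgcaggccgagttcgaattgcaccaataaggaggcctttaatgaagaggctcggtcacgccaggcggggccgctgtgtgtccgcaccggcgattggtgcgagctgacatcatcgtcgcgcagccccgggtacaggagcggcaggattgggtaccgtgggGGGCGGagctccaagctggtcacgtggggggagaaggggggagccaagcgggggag

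Over the whole windows, GGGCGG was found in 6 of the 7 members, all but Klf9, and in 35.7% of 32841 windows of the same length. The EGR letters were found in 3 of the 7, Klf2 (1 match), Klf4 (2) and Klf3 (3), and in 5.55% of all windows. Of these 3, Klf2 and Klf4 fell and Klf3 rose. The CACCC box was found in 4 of 7 (57.5% of all windows), and TGANTCA, the AP-1 motif, and TTCNNNGAA, a STAT motif, in 1 each, both in Klf9 (7.81% and 8.30% of all windows). CCGGAAG, an ETS motif, the SRF CArG box and TATAAA were not found in these windows (8.86%, 1.63% and 13.6% of all windows). The members' windows were 63.0% to 77.7% G and C, against a median of 52.7% over all windows, and the part of that composition in the matches was not tested.

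Klf2 and Klf4 fell together and Klf5 rose. Klf2 (ENSMUSG00000055148.7, chromosome 8, 72319033 to 72321656, GRCm38), which supports naive self-renewal, had 92.6, 102 and 128 CPM in clones a, b and c before treatment and 53.7, 53.3 and 41.8 CPM after 4OHT. Its lowest untreated library lay well above its highest treated one. The log2 fold change was -1.11 ± 0.13 (SE, n = 3 per group, edgeR adjusted p = 5.38e-05), which left 46.3% of the untreated level. Clone c had both the highest untreated and the lowest treated value, so its own change of -1.61 was larger than the -0.78 of clone a and the -0.94 of clone b. With 1 library per clone and time, that difference was not tested.

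Klf4 (ENSMUSG00000003032.8, chromosome 4, 55527143 to 55532466), a reprogramming factor and target of LIF signalling, had 129, 113 and 129 CPM untreated and 79.2, 76.0 and 79.5 CPM after 4OHT. The treated libraries lay close together and all below the untreated ones. The log2 fold change was -0.66 ± 0.07 (edgeR adjusted p = 3.36e-05), to 63.2% of the untreated level, with -0.71, -0.57 and -0.70 in clones a, b and c.

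Klf5 (ENSMUSG00000005148.8, chromosome 14, 99298691 to 99315036), which supports self-renewal and proliferation in these cells, had 164, 152 and 169 CPM untreated and 406, 362 and 357 CPM after 4OHT. Every treated library was above every untreated one. It rose 2.32-fold, a log2 fold change of 1.21 ± 0.07 (edgeR adjusted p = 6.33e-07), with clone changes of 1.30, 1.25 and 1.08.

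The opposite moves changed the makeup of the naive trio. Per kb of exon, Klf5 was 24.0% ± 1.45 (SD, n = 3) of the summed nascent level of Klf2, Klf4 and Klf5 in untreated cells and 57.8% ± 1.25 after 4OHT. Klf2 went from 44.7% ± 3.93 to 21.5% ± 2.07 and Klf4 from 31.3% ± 2.54 to 20.6% ± 1.42. None of these 3 shares overlapped between the groups, and each gave p = 0.1 (exact permutation test, two-sided, 0.11 adjusted over 11 such tests), the smallest that 3 against 3 libraries allow. Klf5 rose and Klf2 and Klf4 fell, each without overlap. The outcome for the share of Klf5 was thus fixed beforehand, and its p adds no evidence. Shares within a library do not depend on the scaling between libraries, but they do depend on the length used: the share of Klf5 went from 13.4% to 40.6% per kb of genomic span and from 41.2% to 74.6% in plain counts. The sum of the trio was 130 ± 12.4 CPM per exon kb untreated and 125 ± 7.96 after 4OHT, overlapping groups (exact permutation p = 0.6). That sum was higher after 4OHT in CPM (393 ± 30.4 and 503 ± 32.0) and lower per kb of span (74.2 ± 8.04 and 56.5 ± 3.74), so its direction turned with the length used.

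**Figure D2:**
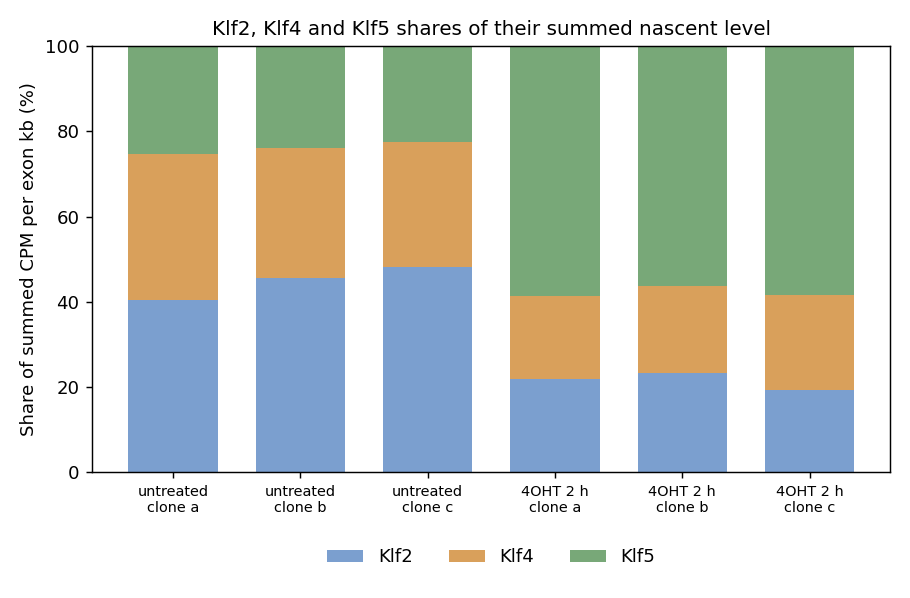
Stacked bars give the percent of the summed CPM per exon kb of Klf2, Klf4 and Klf5 that each gene holds, 1 bar per library. The Klf5 share is 22.5% to 25.4% in the untreated libraries and 56.4% to 58.7% in the treated ones.

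The known partners of these genes in the naive circuit fell more often than they rose: of 12 tested, 7 were lower and 2 higher (28.6% and 28.5% of all tested genes), with a median log2 fold change of -1.004 against -0.00054 over all tested genes. The list was chosen with results of these data known, so it does not stand as independent evidence of a direction. Sall4, a zinc-finger factor of pluripotent cells, fell by 1.15 on the log2 scale (SE 0.07), Nanog by 1.66 (SE 0.12) and the T-box factor Tbx3, whose span overlaps Tbx3os1, by 1.42 (SE 0.11). Klf2 and Klf4 thus moved the way most of the listed partners did and Klf5 moved the other way, the direction of the 2 partners that rose, Zfp42 (0.67 ± 0.09) and Pou5f1 (0.36 ± 0.06). By library size alone Pou5f1 was not called (0.16, edgeR adjusted p = 0.0547).

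Of 12 genes on the LIF and STAT3 route to Klf4, 5 were higher and 2 lower (median 0.18), against 28.5% and 28.6% of all tested genes. The kinases Jak1 (overlapping Raver2) and Jak2 rose by 3.06 ± 0.10 and 2.36 ± 0.08 on the log2 scale, and Stat3 itself, which overlaps Stat5a, went from 118 ± 2.17 to 113 ± 1.81 CPM (-0.07 ± 0.06, edgeR adjusted p = 0.343). Scaled by library size alone, 5 of the 12 were lower, Stat3 among them (-0.27, edgeR adjusted p = 0.00411). By that scaling 5684 of all 13869 tested genes were lower, and the median fold change shifted by -0.20 (log2).

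Klf6 (ENSMUSG00000000078.7, chromosome 13, 5861482 to 5870394) is the growth-signal-induced member. It had 101, 111 and 187 CPM untreated and 313, 346 and 391 CPM after 4OHT. The untreated library of clone c stood apart from the others but stayed below every treated library. Klf6 rose 2.64-fold (log2 1.40 ± 0.20, edgeR adjusted p = 0.000176), by 1.63 and 1.64 in clones a and b and by 1.06 in clone c. With clone as a term in the model the value was 1.44 ± 0.08, with a smaller SE than in the fit without it.

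Klf3 (ENSMUSG00000029178.14, chromosome 5, 64803388 to 64832901), the CtBP-recruiting repressor, had 262, 265 and 259 CPM untreated and 453, 394 and 358 CPM after 4OHT. The untreated clones were nearly level and the treated ones all higher and more spread. The log2 fold change was 0.62 ± 0.08 (edgeR adjusted p = 0.000142), a rise of 1.53-fold. Its span overlaps C230096K16Rik, at 0 counts throughout, and Gm20033.

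The members that recruit SIN3A split, and they held both the largest rise and the largest fall. Klf10 (ENSMUSG00000037465.10, chromosome 15, 38291463 to 38300706), known as a TGF-beta-inducible early gene, had 89.0, 89.6 and 81.0 CPM untreated and 325, 311 and 313 CPM after 4OHT. The clones lay close together at both times, and the groups were far apart. It rose 3.65-fold (log2 1.87 ± 0.07, edgeR adjusted p = 1.97e-08), and 95.7% of all tested genes had a smaller change.

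Klf11 (ENSMUSG00000020653.12, chromosome 12, 24651274 to 24662789), the closest relative of Klf10 and likewise TGF-beta-inducible, had 67.2, 71.5 and 53.2 CPM untreated and 21.7, 20.7 and 16.1 CPM after 4OHT. Clone c was lowest at both times. The log2 fold change was -1.71 ± 0.14 (edgeR adjusted p = 4.01e-06), to 30.6% of the untreated level, with -1.62, -1.78 and -1.70 in the clones. As the relatives moved apart, the ratio of Klf10 to Klf11 counts went from 1.37 ± 0.140 untreated to 16.5 ± 2.59 after 4OHT (exact permutation p = 0.1, the smallest possible). Klf10 rose and Klf11 fell, each without overlap between the groups. The outcome for their ratio was thus fixed beforehand, and its p adds no evidence.

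Klf16 (ENSMUSG00000035397.8, chromosome 10, 80567124 to 80577321), a repressor first described at dopamine receptor genes, had 49.3, 44.4 and 62.4 CPM untreated and 112, 114 and 133 CPM after 4OHT. Clone c was again the highest at both times. It rose 2.30-fold (log2 1.20 ± 0.12, edgeR adjusted p = 1.73e-05).

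Klf9 (ENSMUSG00000033863.2, chromosome 19, 23141226 to 23168134), a gene induced by glucocorticoids and thyroid hormone, had 275, 251 and 247 CPM untreated and 353, 346 and 290 CPM after 4OHT. The treated clone c library came closest to the untreated ones without reaching them. The rise was 1.28-fold (log2 0.36 ± 0.08, edgeR adjusted p = 0.00467). It was not called by library size alone (0.16, adjusted p = 0.146) or without both libraries of clone b (0.30, adjusted p = 0.0961), within a range of adjusted p of 5.93e-07 to 0.146 over all 19 alternatives. Its span holds the microRNA gene Mir1192.

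Klf13 (ENSMUSG00000052040.10, chromosome 7, 63886351 to 63938915), an activator of a chemokine gene in T cells, had 163, 162 and 146 CPM untreated and 172, 181 and 161 CPM after 4OHT. The groups overlapped. Its log2 fold change of 0.13 ± 0.07 did not pass the test (edgeR adjusted p = 0.155). With clone as a term it did (0.13 ± 0.04, adjusted p = 0.0170) in edgeR but not in DESeq2 (0.13, adjusted p = 0.14), and by library size alone the value turned to -0.08 (adjusted p = 0.422). Its span overlaps E030018B13Rik, at 0 counts throughout, and Gm27252.

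**Figure D3:**
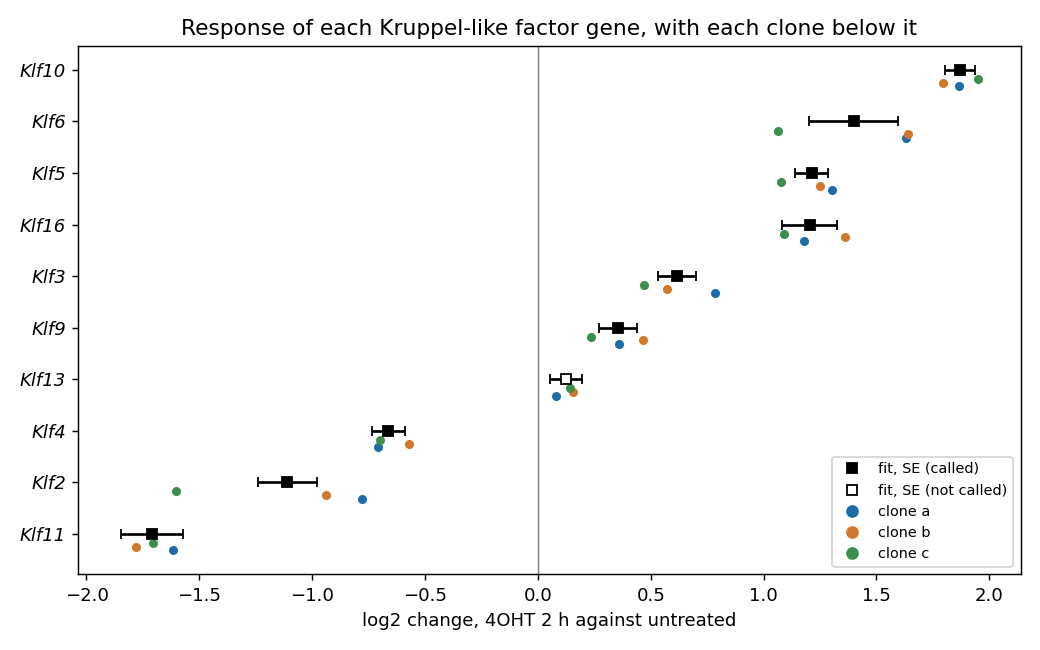
Squares give the log2 fold change of 4OHT against untreated with its SE from the fit across all genes, filled where called, and the dots below each give the change within clones a, b and c. The changes run from -1.71 for Klf11 to 1.87 for Klf10, the clones share a direction for every member, and their spread is widest for Klf2 and Klf6.

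Per kb of exon, the scale on which levels of different genes are set side by side, the untreated order was Klf2 (58.3 ± 9.96 CPM per kb), Klf9 (53.5 ± 3.16), Klf4 (40.6 ± 3.13), Klf5 (31.1 ± 1.70), Klf6 (30.3 ± 10.7), Klf3 (23.3 ± 0.306), Klf13 (20.8 ± 1.28), Klf10 (20.7 ± 1.14), Klf16 (19.5 ± 3.48) and Klf11 (14.7 ± 2.20). The libraries of Klf2 and Klf9, Klf5 and Klf6, Klf6 and Klf3, Klf13 and Klf10, and Klf10 and Klf16 overlapped, so these neighbours do not differ beyond their spread. After 4OHT the order was Klf6 (79.7 ± 8.94), Klf10 (75.7 ± 1.77), Klf5 (72.1 ± 5.20), Klf9 (68.5 ± 7.14), Klf16 (44.7 ± 4.43), Klf3 (35.7 ± 4.23), Klf2 (26.9 ± 3.66), Klf4 (25.7 ± 0.639), Klf13 (22.7 ± 1.32) and Klf11 (4.49 ± 0.690). Klf6 overlapped with Klf10, Klf10 with Klf5, Klf5 with Klf9, and Klf2 with Klf4. Klf2 thus went from the first place to the seventh and Klf10 from the eighth to the second on this scale, and per kb of genomic span Klf2 went from the first to the fourth and Klf10 from the sixth to the second. Whether introns were counted is not stated, and the order depends on it: per kb of genomic span, 3 of the 10 members held the same untreated place, Klf2 still came first (41.0 ± 7.01) and Klf13, with the longest span at 52.6 kb, came last (2.99 ± 0.183).

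Clone differences beside the treatment were called for 4 of the 10 members (edgeR joint test of the clone terms, adjusted p below 0.05), against 12.6% of all tested genes. Klf6 (adjusted p = 0.000592) and Klf16 (0.00457) were higher in clone c, at 1.45 and 1.26 times their level in clones a and b, taking both times together. Klf11 (0.00583) and Klf9 (0.0394) were lower there, at 0.767 and 0.883 times. The other 6 members gave adjusted p of 0.111 to 0.571. Each of the 10 members kept its direction in all 3 clones, and the share of all tested genes that did so was not computed.

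The rest of the family, 17 further KLF and SP genes, also held changes of both directions. The counts held 16 of them, and 10 were tested, with 4 higher, 3 lower and 3 not called (28.5% and 28.6% of all tested genes), and a median log2 fold change of 0.17. Klf15, a regulator of metabolism in liver and muscle, had 67.5 ± 8.17 CPM (SD) untreated and 18.9 ± 2.06 after 4OHT (-1.83 ± 0.11, edgeR adjusted p = 7.16e-07), beside the -1.71 of Klf11. Klf8, a CtBP-recruiting repressor, fell from 64.0 ± 2.77 to 29.3 ± 5.71 CPM (-1.12 ± 0.12), while Klf12 of the same branch rose from 122 ± 15.4 to 175 ± 25.3 CPM (0.52 ± 0.12). The CtBP branch thus held 2 genes that rose (Klf3 and Klf12) and 1 that fell.

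Sp6, known from tooth and skin development, fell from 7.21 ± 0.624 to 2.59 ± 0.401 CPM (-1.48 ± 0.19, edgeR adjusted p = 0.000102). The broadly active factors Sp3, which overlaps Gm11084 and other genes, and Sp1 rose by 0.31 ± 0.06 and 0.26 ± 0.08, and Klf7, known from neurons, by 0.24 ± 0.07. These 3 were not called by library size alone, where their values were 0.11, 0.06 and 0.04 and Klf12 was the only one of the list still called higher. Leaving out single libraries, Sp1 was not called without untreated b, treated a or treated b (edgeR adjusted p = 0.0581 to 0.0641). Klf7 was not called without untreated a (edgeR adjusted p = 0.0747) or treated b (0.089). The erythroid factor Klf1 (-0.70 ± 0.28, adjusted p = 0.0528), Sp4 (0.25 ± 0.11, adjusted p = 0.0809) and Sp2 (0.09 ± 0.06, adjusted p = 0.204) did not pass. With clone as a term Klf1 (adjusted p = 0.00542) and Sp4 (0.00232) did. Klf1 was also called lower without untreated a, untreated b or treated c (edgeR adjusted p = 0.0358 to 0.0437) and by library size (0.0153), and Sp4 higher without treated c (0.0144).

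**Figure D4:**
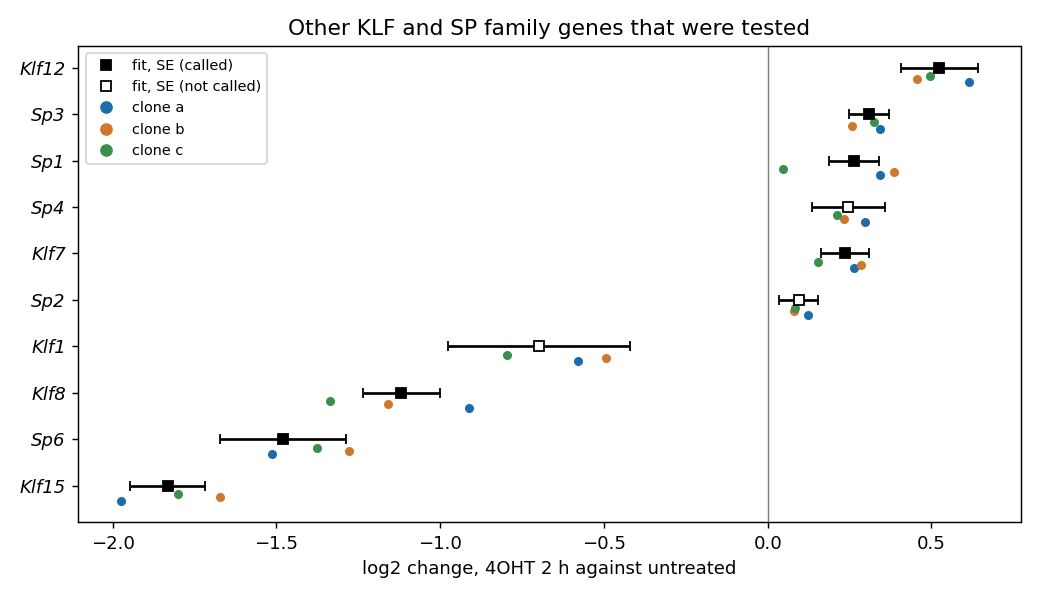
The 10 tested KLF and SP genes outside the member list, drawn as log2 fold change of 4OHT against untreated with its SE (squares, filled where called) and the change within each clone (dots). The values run from -1.83 for Klf15 to 0.52 for Klf12.

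In the fit on treatment alone, most genes known to act with or on the KLFs did not pass the test. Of 24 tested cofactors, ubiquitin ligases and upstream kinases, 6 were higher, 3 lower and 15 not called (25% and 12.5%, below the 28.5% and 28.6% of all tested genes), with a median of 0.07. The transcription factor Mef2a, which with its relatives controls Klf2 in other cells and whose span overlaps Lysmd4, rose from 37.1 ± 1.47 to 58.2 ± 5.11 CPM (0.65 ± 0.08), while its relative Mef2d fell from 71.4 ± 7.76 to 51.3 ± 6.80 CPM (-0.48 ± 0.11). The others called lower were the ubiquitin ligase subunit Btrc (-0.49 ± 0.10) and the kinase Map2k5 (-0.28 ± 0.08), the latter not called without untreated b (edgeR adjusted p = 0.0572). The acetyltransferase Ep300 rose by 0.38 ± 0.06 and the deubiquitinase Atxn3 by 0.35 ± 0.06, the latter not called by library size alone (0.15, edgeR adjusted p = 0.0597). Among corepressors, Sin3b rose by 0.33 ± 0.07, a call lost by library size alone (edgeR adjusted p = 0.128), while Sin3a (-0.17 ± 0.07, adjusted p = 0.073) and Ctbp1 (0.03 ± 0.08, adjusted p = 0.778) did not pass. With clone as a term 8 of the 24 were higher and 5 lower, Sin3a (edgeR adjusted p = 0.00146) among the latter. In that fit 4725 of all 13869 tested genes were higher and 4623 lower. Sin3a was also called lower by library size (edgeR adjusted p = 0.00229) and without untreated c (0.0139). Ctbp2, which overlaps Fgfr2, had 8 to 25 counts per library, and Fbxw7, a ubiquitin ligase for KLF proteins, is listed at 0 in every library. Fbxw7 overlaps Gm37240 and Gm37726, which are also in the table, and how reads of overlapping genes were assigned is not stated, so its 0 does not show a lack of expression.

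By distance between their levels in the 6 libraries, each centred on the gene's mean (root mean square, log2 CPM, 10907 candidate genes), the genes nearest to Klf10 were Ppp1r13b (0.018), Ptpn12 (0.041) and Zbtb46 (0.066), which rose by 1.86, 1.90 and 1.80. Those nearest to Klf11 were Ulk1 (0.046), Srgap3 (0.048) and Ap3b2 (0.066), which changed by -1.66, -1.74 and -1.67. Since the distance was taken over the same 6 libraries, changes close to those of Klf10 and Klf11 follow from the choice of genes. Ppp1r13b overlaps Zfyve21, Ptpn12 overlaps Gm43216 and Ap3b2 overlaps Gm45906.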

How the data were processed

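Newly made RNA was counted in 6 libraries. The authors deposited raw counts for each gene symbol, not normalized. Per the submitters' processing notes, STAR and featureCounts were used with mm10. Their versions, the annotation, the use of strand and the counting of introns were not given in the sources used here, so reads of overlapping genes cannot be separated. The table held 25899 genes, 6497 of them with no count. Columns were tied to samples by clone letter and time. Genes passing filterByExpr (minimum count 10, minimum total 15) numbered 13869. They were scaled by TMM and fitted with edgeR 4.0.16 (glmQLFit, glmQLFTest, R 4.3.3) on treatment alone, with Benjamini-Hochberg adjustment over all tested genes and calls below 0.05. The test was checked on simulated data in which few genes changed, equally in both directions, with no clone differences. That check does not cover the choice of scaling or the fit without a clone term. The SE is the size of the log2 fold change divided by the square root of F. Clone changes are differences of log2 CPM (prior count 2). Positions, overlaps and lengths (union of exons) are from GENCODE M21 (GRCm38, the assembly of mm10), and start-site sequences from RefSeq (GRCm38.p6).

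Each clone letter occurs once per time point in the labels, and this pairs the libraries. Their deviations from the group mean had a correlation of 0.279 (a), 0.146 (b) and 0.362 (c) in the same clone and of -0.289 to 0.0781 between clones. Fits with clone as a replicate block were alternatives. The labels do not say that the clones were handled independently, so the p-values reflect variation among these libraries, which may be technical in part. No pair of libraries of a group agreed within counting noise (chi-square per gene from 2.29 to 11.3).

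The members, gene lists, motifs and alternatives were chosen with earlier results of these data known. The text names all members, the other tested KLF and SP genes, 3 genes with the smallest adjusted p per further list, genes that check the cassette and ERK output, and the 3 genes nearest to the members with the largest rise and fall (mean log2 CPM of at least 2). Stat3, Sin3a, Sin3b, Ctbp1, Ctbp2, Fbxw7, Mef2d, Btrc, Map2k5, Col1a1, Pdgfrb, Col4a1, Dab2, Sparc, Krt8, Krt18, Hand1, Tfap2c, Zfp42 and Pou5f1 were named after their values were seen. Some genes that this rule names are not reported here. Alternatives were DESeq2 size factors, upper quartile, library size, no filter, a filter at 1 CPM, tests by DESeq2 1.42.0 and by limma-voom (limma 3.58.1), the clone block, stricter thresholds and each library or clone left out.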

Additional observations from a re-analysis of the deposited data

How the results depend on the processing

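Of 190 results of single members under an alternative, 186 kept the direction and the side of the threshold, and the exceptions were in Klf9 and Klf13. The stricter adjusted p reused the main fit, so there only the side of the threshold could change. Klf13 turned to -0.0752 by library size, which shifts the median fold change by -0.20 (log2), and was called with clone as a replicate block (0.13, adjusted p = 0.017). Klf9 was not called by library size (0.16) or without clone b (0.30). Under the replicate block 7 members were higher and 3 lower in edgeR, and 6 and 3 in DESeq2, where Klf13 was not called (adjusted p = 0.14). Over all 13869 tested genes that block gave 4725 higher and 4623 lower in edgeR, and 3676 and 3347 in DESeq2. Leaving out libraries or clones gave 5 to 6 members higher and 3 lower, with Klf6 at 1.24 to 1.71 and Klf2 at -1.27 to -0.89.

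Over all genes, 2407 were higher and 5684 lower by library size, and 947 higher and 1324 lower with at least 2-fold. Library size left 1 other KLF or SP gene, 3 cofactors and 1 naive partner higher, and 6 cofactors and 5 LIF route genes lower. The replicate block gave 8 cofactors higher and 5 lower (4725 and 4623 of all genes). Leaving out 1 library gave 2 to 5 other KLF or SP genes higher and 2 to 5 cofactors lower. The replicate block changed no other call of a named gene than those given with the results. The ratio of the highest to the lowest untreated member was 3.96 per exon kb and 13.7 per kb of span. The cause of these shifts was not tested. Members had at least 110 counts in every library, and for some, such as Klf3 untreated and Klf4 treated, the spread between clones is no larger than counting error. Klf14, Klf17, Sp5, Sp7, Sp8 and Sp9 were too low to test.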
